A study of Rattus norvegicus with 30 samples.

Results

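Chemokines are small secreted proteins that draw leukocytes along a concentration gradient by way of receptors on the leukocyte surface. The CC and CXC families are named for the spacing of their first cysteines. In the kidney they are made by tubular epithelium and stroma as well as by resident macrophages, and many of their genes are induced by inflammatory cytokines through the transcription factor NF-kB. The cells of the inner medulla live in a medium that is far more concentrated than plasma and that changes with the state of hydration.

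The 10 chemokine genes described here, 5 of the CC family (Ccl2, Ccl3, Ccl6, Ccl7 and Ccl20) and 5 of the CXC family (Cxcl1, Cxcl2, Cxcl6, Cxcl10 and Cxcl16), were followed on 30 Affymetrix arrays of rat inner medullary collecting duct (IMCD) cells in primary culture. They were selected on platform gene symbol, taking for each gene the probe set with exactly 1 symbol and the highest mean over the arrays. All 10 were found, with 1 such probe set each, among 14506 genes. The list itself was drawn up with earlier results in view, in which Cxcl6 and Ccl6 stood among the lowest genes of cells kept at 600 or 900 mosmol/kg relative to cells kept at 300 mosmol/kg. Those 2 comparisons are therefore given as levels without a test. Where other comparisons with the steady arrays are tested, their p-values are not independent of this choice.

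There were 10 groups of 3 arrays. Cells moved up from 300 to 600 mosmol/kg were sampled after 3, 12, 24 and 48 h (4 groups), and cells moved up from 600 to 900 mosmol/kg after 12 and 24 h (2 groups). In 1 further group, cells grown at 900 mosmol/kg spent 24 h back at 300 mosmol/kg, and are called the returned cells. The remaining 3 groups were kept throughout at 300, 600 or 900 mosmol/kg and are called steady 300, steady 600 and steady 900. Cyclosporin A at 5 µM, which blocks calcineurin, is given as the treatment of all samples, yet it is absent from the titles, so which cultures received it is not settled and no group is known to be free of it. The solute that raised the osmolality is not given in the sources used here, and whether the 3 arrays of a group stand for 3 cultures or animals is not stated. The p-values therefore measure only how far these arrays scatter, and that scatter may be technical.

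Values are log2 intensities summarised by RMA, and a difference of 1 is a 2-fold change. Array medians lay between 5.63 and 5.76. Each of the 30 arrays correlated best with an array of its own group, with r between 0.991 and 0.998 within groups. The epithelial genes Epcam and Krt8 were bright in all groups, with Epcam group means of 11.54 to 12.04. Aqp2, the vasopressin-regulated water channel that defines principal cells, was at 12.04 in steady 900 and 10.07 in steady 600, against 5.61 in steady 300. Macrophage genes were also measured. The mean of 20 macrophage and leukocyte markers was 8.48 in steady 300, with Lyz2 at 11.42 and Cd68 at 10.14 there, whereas the T cell gene Cd3e stayed between 3.33 and 3.67. In cultures of this kind, fewer cells of a type and less RNA per cell cannot be told apart.

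Ccl2 and Cxcl16 were brighter than 99.9% and 99.5% of the 14506 genes, and Ccl6 brighter than 34.6%. Changes of probe sets near the top or the bottom of the scale may be understated. Group means spanned 8.26 log2 units for Cxcl6, 5.33 for Ccl6 and 5.17 for Cxcl2. They spanned 0.68 for Ccl2 and 0.64 for Cxcl16. The plot of the levels by array shows each gene in the 10 groups.

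**Figure D1:**
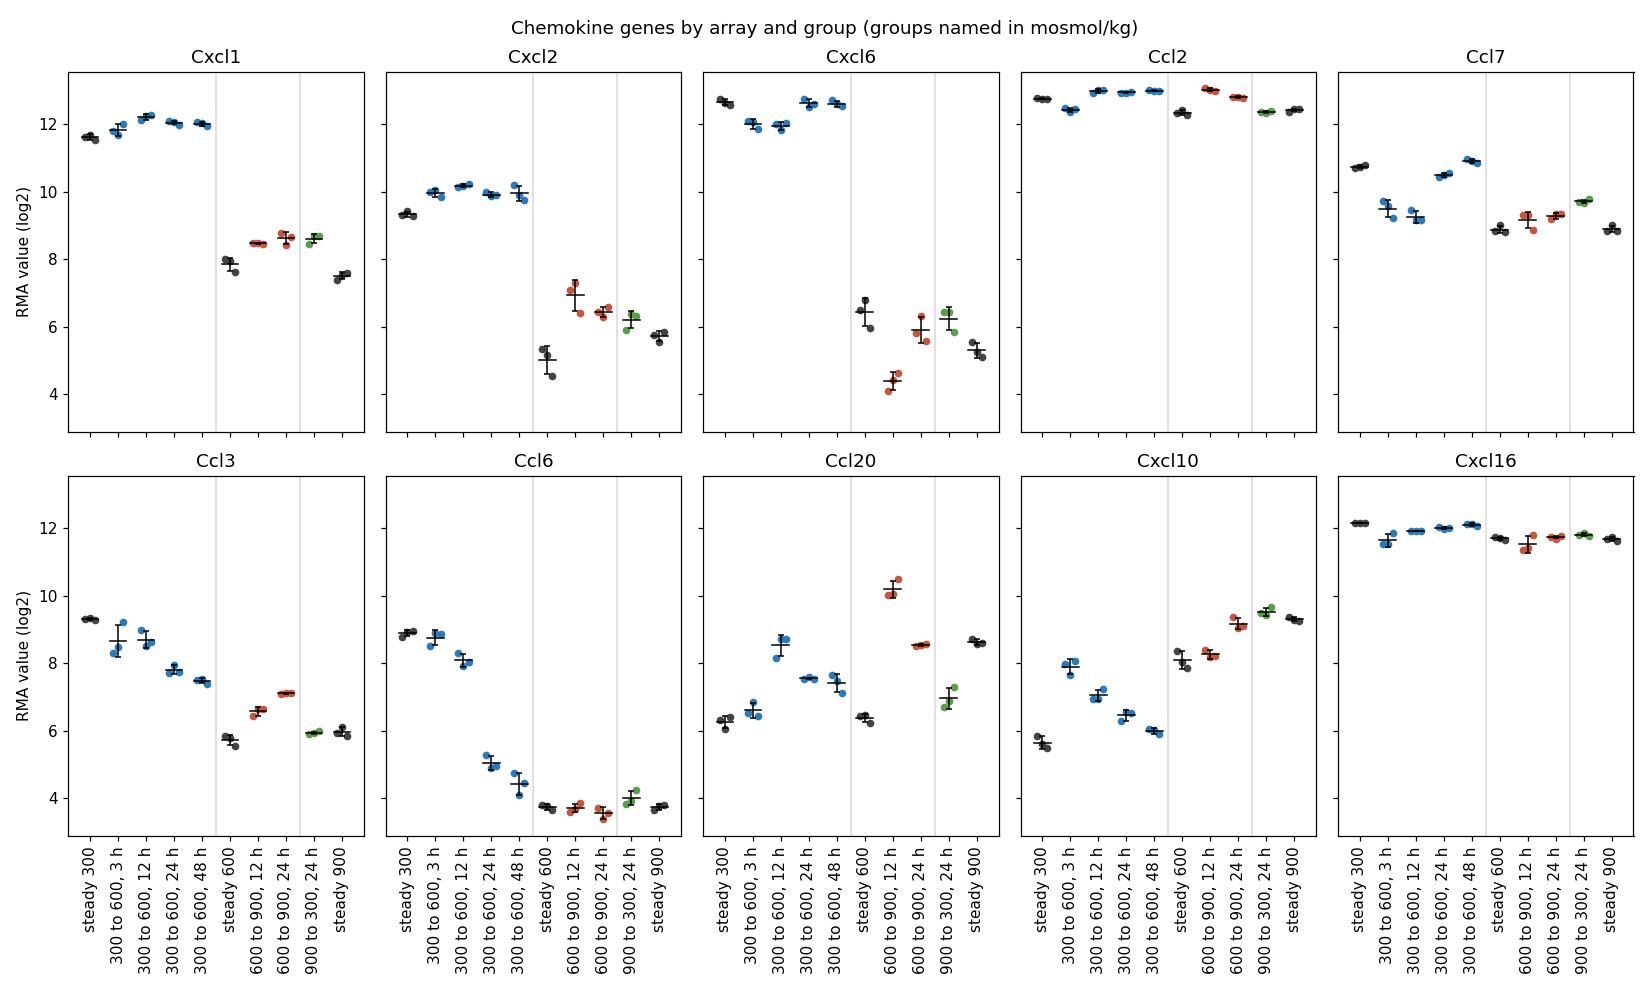
Level of each chemokine gene on every array (points; RMA value, log2) by group (x axis, osmolality in mosmol/kg), with the group mean and SD (bars, n = 3). Cxcl1, Cxcl2 and Cxcl6 lay high in steady 300 and in the 4 groups moved to 600, and low in every other group, Ccl20 was highest at 12 h after each step, and Cxcl10 was lowest in steady 300.

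Cxcl1, Cxcl2 and Cxcl6 carry the ELR motif and draw neutrophils by way of the receptor Cxcr2. Cxcl6 showed the widest range of the 10 genes. It read 6.51, 6.80 and 5.98 in steady 600 and 5.55, 5.26 and 5.11 in steady 900, against 12.75, 12.62 and 12.58 in steady 300. Cxcl1 read 8.00, 7.94 and 7.62 in steady 600 and 7.40, 7.55 and 7.59 in steady 900, against 11.63, 11.69 and 11.54 in steady 300. Cxcl2 read 5.35, 5.16 and 4.55 in steady 600 and 5.77, 5.55 and 5.84 in steady 900, against 9.32, 9.42 and 9.27 in steady 300. All arrays of both concentrated steady states lay below all arrays of steady 300 for these 3 genes. The log2 difference of steady 600 from steady 300 was -6.22 ± 0.18 for Cxcl6, -3.77 ± 0.10 for Cxcl1 and -4.32 ± 0.17 for Cxcl2 (± SE throughout).

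Their levels after a step to 600 mosmol/kg were unlike those of steady 600. At 48 h Cxcl6 read 12.70, 12.60 and 12.53, Cxcl1 read 12.06, 12.03 and 11.95, and Cxcl2 read 10.20, 9.90 and 9.77. These cells were in the same osmolality as steady 600 but had come from 300 mosmol/kg. Cxcl6 was 72.5-fold higher at 48 h than in steady 600 (6.18 ± 0.18, limma adjusted p = 1.06e-20), Cxcl2 30.7-fold (4.94 ± 0.17, adjusted p = 1.04e-18) and Cxcl1 17.9-fold (4.16 ± 0.10, adjusted p = 1.64e-22). The mean of the 20 macrophage markers was 6.66 at 48 h and 6.67 in steady 600, and 3 of the 20 were higher and 5 lower. That of 13 collecting duct and epithelial markers was 7.99 at 48 h and 9.59 in steady 600, with 1 higher and 10 lower. For 12 fibroblast markers it was 8.49 and 8.94, with 2 higher and 6 lower. Of all genes, 9.47% were called higher and 12.5% lower in this comparison. The part of these cell types in the result was not tested. The steady 600 arrays enter both this comparison and the one with steady 300, so its p-values are not independent of the choice of the list. Relative to steady 300, Cxcl1 and Cxcl2 were higher at 48 h by 0.39 ± 0.10 and 0.62 ± 0.17 (limma adjusted p = 0.00448 and 0.00936). The Cxcl2 call was lost without replicate 1 of the 48 h group (adjusted p = 0.076). For Cxcl6 the difference of 48 h from steady 300 was -0.04 ± 0.18 (adjusted p = 0.925).

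Within the time course the 3 genes parted early. Cxcl2 was higher at 3 h (0.62 ± 0.17, limma adjusted p = 0.00506) and at 12 h (0.85 ± 0.17, adjusted p = 0.000286) than in steady 300. Cxcl6 was lower at 3 h (-0.64 ± 0.18, adjusted p = 0.00534) and at 12 h (-0.70 ± 0.18, adjusted p = 0.00322). With cyclic loess the 3 h call of Cxcl6 was lost (adjusted p = 0.0981). Cxcl1 was higher at 12 h (0.60 ± 0.10, adjusted p = 2.06e-05), and its 3 h difference of 0.20 ± 0.10 did not pass (adjusted p = 0.108) but did so under quantile normalization, median centring and cyclic loess and without replicate 2 of the 3 h group (0.0413). At 24 h Cxcl2 was higher by 0.58 ± 0.17 (adjusted p = 0.0145), a call lost without replicate 3 of steady 300 (adjusted p = 0.0531) or replicate 1 of the 24 h group (0.0569). Cxcl1 was higher at 24 h by 0.43 ± 0.10 (adjusted p = 0.00188), and Cxcl6 differed by -0.03 ± 0.18 (adjusted p = 0.934).

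**Figure D2:**
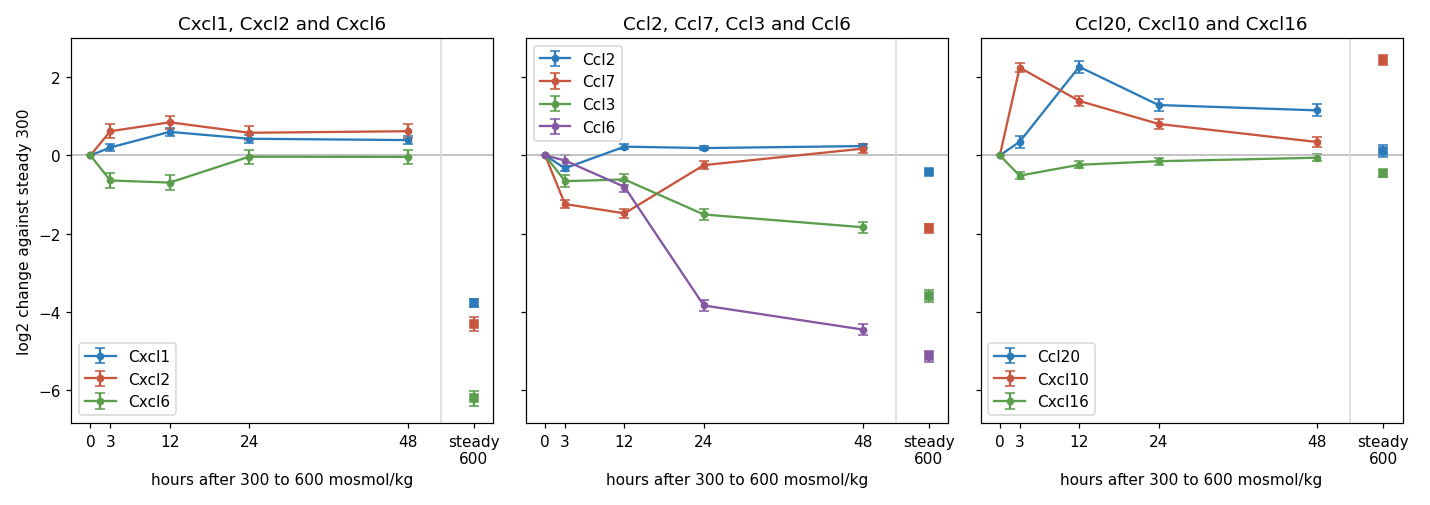
Log2 change against steady 300 (y axis) by hours after the step from 300 to 600 mosmol/kg (x axis), with SE bars from the fit and the steady 600 difference as squares at the right. Cxcl1, Cxcl2 and Cxcl6 stayed within 0.85 of steady 300 through 48 h but lay 3.77 to 6.22 below it in steady 600, while Ccl6 was 4.45 lower by 48 h.

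The upstream sequence of 8 of the 10 genes matched an entry of the RefSeq promoter set (build GRCr8), and Ccl2 and Ccl3 did not match. A kappa B consensus, the site read by NF-kB, was searched on both strands in the 250 bases before the start. It was found for 6 of the 8 genes, Ccl7, Ccl20, Cxcl1, Cxcl2, Cxcl6 and Cxcl10, and in 6.33% of all 33465 promoters. The core of the tonicity element, the site read by Nfat5, was found for Cxcl2 alone among the 8 and in 5.17% of all promoters. The kappa B consensus has 10 letters and the tonicity element core 11. The matches are descriptions of letters, not of bound sites. The 3 neutrophil chemokine genes are shown with Ccl20 and Cxcl10, which also held the consensus. Each sequence runs 5′ to 3′ on the gene's strand and ends at the base before the start, with the kappa B matches in capitals. The positions in GRCr8 are chr14:17479322-17479451 (minus strand) for Cxcl1, chr14:17467256-17467385 (minus) for Cxcl2 and chr14:17596418-17596547 (minus) for Cxcl6. They are chr9:91837009-91837158 (plus) for Ccl20 and chr14:15988866-15989065 (plus) for Cxcl10.
Cxcl1: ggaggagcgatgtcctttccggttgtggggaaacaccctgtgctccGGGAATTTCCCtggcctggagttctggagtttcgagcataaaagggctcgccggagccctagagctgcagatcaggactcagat
Cxcl2: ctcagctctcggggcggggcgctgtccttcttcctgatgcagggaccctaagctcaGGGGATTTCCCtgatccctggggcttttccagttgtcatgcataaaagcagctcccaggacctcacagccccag
Cxcl6: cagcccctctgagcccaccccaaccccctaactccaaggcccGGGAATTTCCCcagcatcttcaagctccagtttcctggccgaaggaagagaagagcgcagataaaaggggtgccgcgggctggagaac
Ccl20: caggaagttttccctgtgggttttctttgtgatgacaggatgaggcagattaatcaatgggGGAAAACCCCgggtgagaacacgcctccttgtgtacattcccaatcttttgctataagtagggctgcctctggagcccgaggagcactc
Cxcl10: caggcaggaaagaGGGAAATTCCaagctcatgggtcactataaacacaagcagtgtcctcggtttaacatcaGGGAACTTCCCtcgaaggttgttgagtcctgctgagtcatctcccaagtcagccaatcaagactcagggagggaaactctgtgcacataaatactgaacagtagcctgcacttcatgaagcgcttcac

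After the step from 600 to 900 mosmol/kg, Cxcl6 went the other way from its paralogs. It read 4.12, 4.42 and 4.63 at 12 h, against 6.51, 6.80 and 5.98 in steady 600, and was lower by 2.04 ± 0.18 (limma adjusted p = 3.26e-10). Cxcl2 read 7.08, 7.30 and 6.42 at 12 h and was higher than in steady 600 by 1.92 ± 0.17 (adjusted p = 4.87e-10), and Cxcl1 by 0.62 ± 0.10 (adjusted p = 1.06e-05). At 24 h Cxcl2 and Cxcl1 were higher by 1.43 ± 0.17 and 0.77 ± 0.10 (adjusted p = 1.85e-07 and 5.68e-07). The 24 h difference of Cxcl6 was -0.53 ± 0.18 (adjusted p = 0.029). It did not pass under quantile normalization or median centring (adjusted p = 0.074 and 0.0578), nor without replicate 1 or 2 of steady 600 (0.09 and 0.223) or replicate 1 or 9 of the 24 h group (0.0964 and 0.195). Even the highest of these values stayed below the levels of steady 300.

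Return to 300 mosmol/kg for 24 h left the 3 genes far from steady 300. Cxcl6 read 6.45, 6.43 and 5.84 in the returned cells, against 12.75, 12.62 and 12.58 in steady 300, an 85.0-fold difference (-6.41 ± 0.18, limma adjusted p = 1.55e-21, in which the steady 300 arrays of the list's choice enter again). Cxcl1 read 8.45, 8.68 and 8.68 (-3.02 ± 0.10, adjusted p = 5.39e-20) and Cxcl2 read 5.92, 6.39 and 6.32 (-3.13 ± 0.17, adjusted p = 4.06e-15). The groups did not overlap for any of the 3. Relative to steady 900, from which these cells came, Cxcl1 was higher by 1.09 ± 0.10 (adjusted p = 6.36e-10) and Cxcl6 by 0.93 ± 0.18 (adjusted p = 0.000121). Cxcl2 was higher by 0.49 ± 0.17 (adjusted p = 0.0258), a call lost without replicate 2 of steady 900 (adjusted p = 0.113) or without replicate 2 or 9 of the returned cells (0.118 and 0.0918). The plot of the 48 h and returned groups sets each beside the steady group of its own medium and that of its origin.

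**Figure D3:**
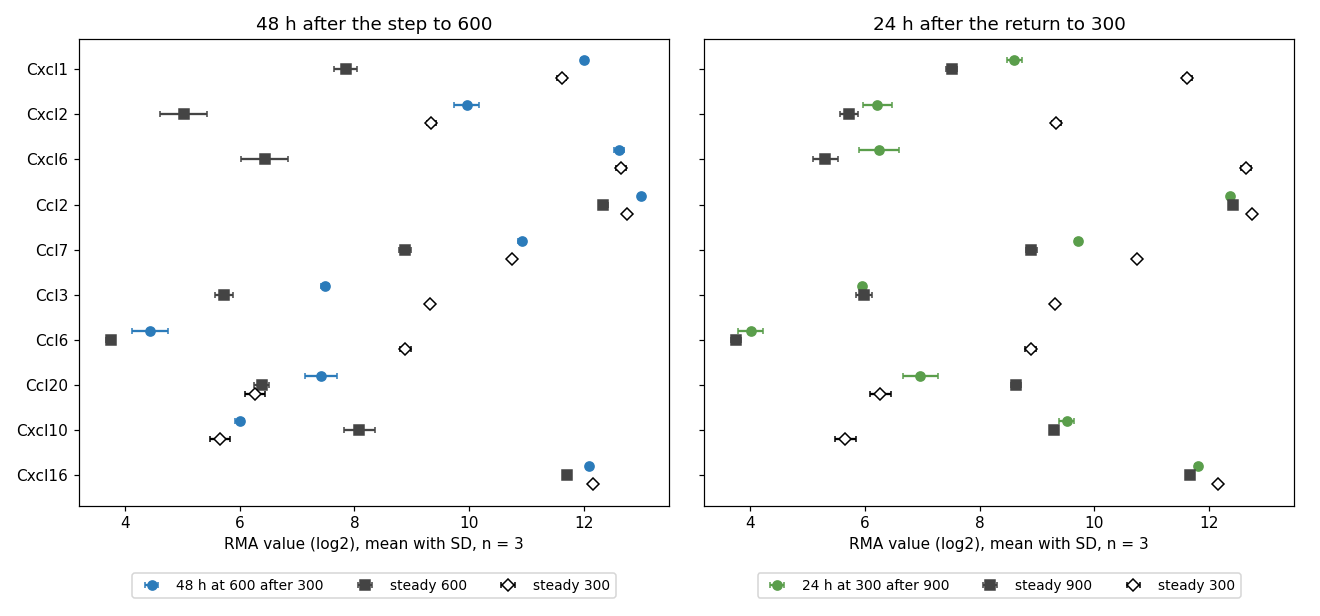
Mean level (x axis, RMA value in log2, bars SD, n = 3) of each gene in cells 48 h at 600 after 300 mosmol/kg, steady 600 and steady 300 (left), and in cells 24 h at 300 after 900 mosmol/kg, steady 900 and steady 300 (right). Cxcl1, Cxcl2 and Cxcl6 lay near the group the cells came from in both panels, at 12.61 for Cxcl6 at 48 h and 6.24 in the returned cells.

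Cxcl1 differed by -0.34 ± 0.10 between steady 900 and steady 600 (limma adjusted p = 0.0119), Cxcl6 by -1.12 ± 0.18 (adjusted p = 1.6e-05) and Cxcl2 by 0.70 ± 0.17 (adjusted p = 0.00274). The Cxcl1 call was lost without replicate 1 or 2 of steady 600 (adjusted p = 0.0879 and 0.0667) or replicate 1 of steady 900 (0.0781), and that of Cxcl2 without replicate 3 of steady 600 (0.0516). Cxcl1, Cxcl2 and Cxcl3 are close paralogs, and how far their probe sets share signal was not tested. Cxcl3, a further neutrophil chemokine, read 6.91 at 48 h after the step, against 4.94 in steady 600 (1.97 ± 0.16, adjusted p = 1.06e-10).

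Ccl2 and Ccl7 are the monocyte chemoattractants that act on Ccr2. Ccl7 was transiently lower after the step to 600 mosmol/kg. It read 10.71, 10.74 and 10.79 in steady 300, 9.72, 9.57 and 9.21 at 3 h, 9.46, 9.16 and 9.17 at 12 h, 10.44, 10.49 and 10.56 at 24 h, and 10.98, 10.91 and 10.87 at 48 h. The 3 h and 12 h arrays lay below all others of the course. The log2 difference from steady 300 was -1.24 ± 0.11 at 3 h (limma adjusted p = 1.24e-09) and -1.48 ± 0.11 at 12 h (adjusted p = 1.96e-11). At 24 h it was -0.25 ± 0.11 (adjusted p = 0.119) and at 48 h 0.17 ± 0.11 (adjusted p = 0.324). All 24 h arrays lay below and all 48 h arrays above those of steady 300. The 24 h difference passed with array weights (0.00698) and in a fit of the compared arrays alone (0.0142). That at 48 h passed with array weights (0.0429). The 48 h level was 4.10-fold that of steady 600 (2.04 ± 0.11, adjusted p = 1.47e-14). In steady 600 and steady 900 Ccl7 averaged 8.88 ± 0.11 and 8.90 ± 0.10, against 10.75 ± 0.04 in steady 300 (SD, n = 3 each).

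After the step to 900 mosmol/kg, Ccl7 was higher than in steady 600 by 0.28 ± 0.11 at 12 h (limma adjusted p = 0.0493) and by 0.40 ± 0.11 at 24 h (adjusted p = 0.00689). The 12 h call was lost without replicate 1 or 3 of steady 600 (adjusted p = 0.127 and 0.155) or replicate 1 or 2 of the 12 h group (0.209 and 0.213). After the return it was higher than in steady 900 by 0.82 ± 0.11 (adjusted p = 7.85e-07) and lower than in steady 300 by 1.03 ± 0.11 (adjusted p = 7.3e-09).

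Ccl2 moved in a narrow band, between 12.28 and 13.07 over the 30 arrays. It was lower at 3 h than in steady 300 (-0.33 ± 0.06, limma adjusted p = 6.68e-05, but 0.213 with cyclic loess) and higher at 12 h (0.22 ± 0.06, adjusted p = 0.00408). The 48 h difference was 0.24 ± 0.06 (adjusted p = 0.00373, but 0.0835 after quantile normalization) and the 24 h difference 0.19 ± 0.06 (adjusted p = 0.0223). The 24 h call was lost after quantile normalization (adjusted p = 0.21), without any 1 of the steady 300 arrays (0.0531 to 0.0699) and without replicate 2 or 3 of the 24 h group (0.0536 and 0.0701). Ccl2 was higher than in steady 600 at 12 h after the step to 900 (0.68 ± 0.06, adjusted p = 2.63e-10). Its level was lower in the returned cells than in steady 300 (-0.39 ± 0.06, adjusted p = 3.26e-06).

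Ccl3 and Ccl6 are chemokines that myeloid cells make in quantity, and Ccl6 is a rodent gene. Ccl6 read 8.79, 8.93 and 8.95 in steady 300, 8.50, 8.90 and 8.87 at 3 h, 8.29, 7.93 and 8.03 at 12 h, 5.28, 4.91 and 4.96 at 24 h, and 4.75, 4.11 and 4.45 at 48 h. The step between 12 and 24 h was the widest gap of the course, 3.04. The difference from steady 300 was -0.13 ± 0.14 at 3 h (limma adjusted p = 0.48), -0.80 ± 0.14 at 12 h (adjusted p = 3.27e-05), -3.84 ± 0.14 at 24 h (adjusted p = 3.34e-18) and -4.45 ± 0.14 at 48 h (adjusted p = 6.24e-20). Ccl6 then lay between 3.38 and 4.24 on all arrays of the other 5 groups. It did not pass in steady 900 against steady 600, in either 600 to 900 group against steady 600, or in the returned cells against steady 900. It was 29.6-fold lower in the returned cells than in steady 300 (-4.89 ± 0.14, adjusted p = 1.55e-21). The steady 300 arrays of the list's choice enter this comparison and those of the time course.

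Ccl3 was lower than in steady 300 from the first time point on. It read 9.33, 9.35 and 9.28 in steady 300, 8.30, 8.48 and 9.21 at 3 h, 8.98, 8.50 and 8.63 at 12 h, 7.72, 7.96 and 7.75 at 24 h, and 7.52, 7.53 and 7.40 at 48 h. The 3 h arrays were the most spread, with replicate 3 near steady 300. The log2 difference was -0.66 ± 0.15 at 3 h (limma adjusted p = 0.000574), -0.62 ± 0.15 at 12 h (adjusted p = 0.0013), -1.51 ± 0.15 at 24 h (adjusted p = 2.43e-09) and -1.84 ± 0.15 at 48 h (adjusted p = 5.79e-11). Ccl3 was higher after the step to 900 than in steady 600, by 0.85 ± 0.15 at 12 h (adjusted p = 2.13e-05) and 1.38 ± 0.15 at 24 h (adjusted p = 1.44e-08). The returned cells read 5.91, 5.94 and 5.98, against 5.94, 6.13 and 5.86 in steady 900 (-0.03 ± 0.15, adjusted p = 0.912).

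The macrophage marker mean was lower than in steady 300 from 24 h on, and Ccl6 was lower from 12 h on. The mean of the 20 markers was 8.48 in steady 300, 8.45 at 3 h, 8.52 at 12 h, 6.88 at 24 h and 6.66 at 48 h. It was 6.67 in steady 600, 5.67 and 5.50 at 12 and 24 h after the step to 900, 5.55 in the returned cells and 6.03 in steady 900. At 12 h after the step to 600, 4 of the 20 were higher and 1 lower than in steady 300 (11.9% and 22.6% of all genes). At 24 h after that step, 17 of the 20 were lower than in steady 300 and none higher (13% and 9.4% of all genes). Among them were C1qa at -2.94 ± 0.12 (limma adjusted p = 1.14e-16), Mrc1 at -2.93 ± 0.13 (adjusted p = 1.8e-16) and Cd163 at -2.56 ± 0.15 (adjusted p = 6.92e-14). These are genes for a complement component and for scavenging receptors of tissue macrophages. The pan-leukocyte gene Ptprc was 7.01 at 24 h, against 7.20 in steady 300. Cxcl1, Cxcl2 and Cxcl6 did not have this drop, with Cxcl6 at 12.62 at 24 h. The part of macrophages in the levels of Ccl6 and Ccl3 was not tested.

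**Figure D4:**
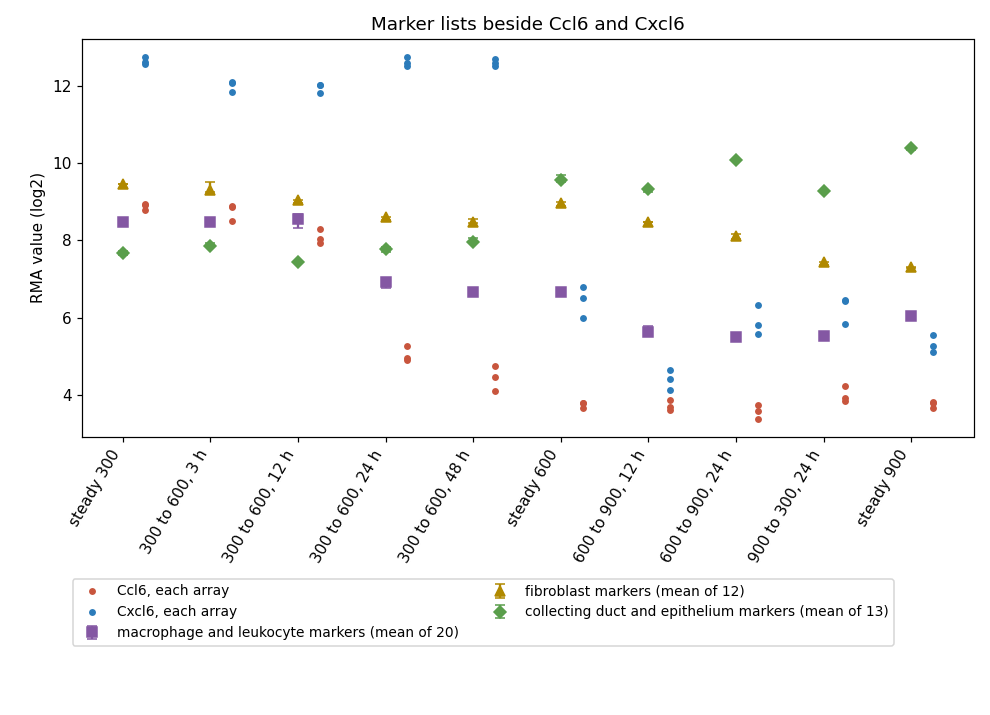
Level of Ccl6 and Cxcl6 on each array and, for each group, the middle array's mean (bars from the lowest to the highest array) of 20 macrophage and leukocyte, 12 fibroblast and 13 collecting duct and epithelial markers (y axis, RMA value in log2; x axis, groups in mosmol/kg). The macrophage markers were lower from 24 h after the step to 600 and Ccl6 from 12 h, by 0.80 at first, while Cxcl6 at 24 h stood near its steady 300 level, and the collecting duct markers were higher in the steady 600 and 900 groups.

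Other marker lists also differed between groups. The mean of 12 fibroblast markers was 7.30 in steady 900 and 8.94 in steady 600, against 9.45 in steady 300, and that of 13 collecting duct and epithelial markers was 10.38 and 9.59, against 7.68. Among the returned cells these means were 7.41 and 9.28, and at 48 h after the step to 600 they were 8.49 and 7.99. The mean of 7 endothelial markers lay between 7.41 and 8.34 in all groups. The part of any cell type in the levels of Cxcl1, Cxcl2 and Cxcl6 was not tested.

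Ccl20, the ligand of Ccr6 and a product of epithelium, was highest at 12 h after both upward steps. It read 6.33, 6.06 and 6.40 in steady 300, 6.53, 6.86 and 6.44 at 3 h, 8.17, 8.72 and 8.71 at 12 h, 7.54, 7.58 and 7.55 at 24 h, and 7.66, 7.48 and 7.12 at 48 h. All arrays from 12 h on lay above steady 300. It was 4.81-fold higher at 12 h than in steady 300 (2.27 ± 0.16, limma adjusted p = 3.36e-12), and higher at 24 h (1.29 ± 0.16, adjusted p = 1.86e-07) and at 48 h (1.15 ± 0.16, adjusted p = 1.41e-06). The 3 h difference of 0.35 ± 0.16 did not pass (adjusted p = 0.0755), but it did under quantile normalization, median centring and cyclic loess (adjusted p = 0.00536 to 0.00764) and without replicate 3 of the 3 h group (0.0497).

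After the step to 900 mosmol/kg Ccl20 read 10.02, 10.05 and 10.49 at 12 h and 8.52, 8.53 and 8.57 at 24 h, against 6.43, 6.48 and 6.23 in steady 600. The 12 h level was 14.0-fold that of steady 600 (3.81 ± 0.16, limma adjusted p = 3.16e-17) and the 24 h level was higher by 2.16 ± 0.16 (adjusted p = 8.56e-12). At 24 h it differed by -0.10 ± 0.16 from steady 900 (adjusted p = 0.753), whose arrays read 8.73, 8.57 and 8.61. Steady 900 was higher than steady 600 by 2.26 ± 0.16 (adjusted p = 2.52e-12). Ccl20 in the returned cells read 6.70, 6.89 and 7.31 and was lower than in steady 900 by 1.67 ± 0.16 (adjusted p = 9.1e-10), yet higher than in steady 300 by 0.70 ± 0.16 (adjusted p = 0.000463). The steady 600 and steady 300 arrays overlapped.

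Cxcl10, the interferon-inducible ligand of Cxcr3, had a short peak after the step to 600 and a high level in the concentrated steady states. It read 5.85, 5.62 and 5.49 in steady 300, 7.97, 7.66 and 8.07 at 3 h, 6.95, 6.96 and 7.24 at 12 h, 6.28, 6.57 and 6.52 at 24 h, and 6.05, 6.03 and 5.91 at 48 h. The 4 groups after the step all lay above steady 300, and from 12 h on each lay below the group before it. It was 4.75-fold higher at 3 h (2.25 ± 0.13, limma adjusted p = 1.11e-13) and higher at 12 h (1.40 ± 0.13, adjusted p = 6.13e-10) and 24 h (0.81 ± 0.13, adjusted p = 1.15e-05). The 48 h difference of 0.34 ± 0.13 did not pass (adjusted p = 0.0511). It passed under quantile normalization (0.0144) and median centring (0.0248) and without replicate 1 of steady 300 (0.0234). It also passed with a filter on dim genes (0.0356), array weights (0.0112), a robust variance trend (0.0367) and the replicate block (0.0473). A fit of the compared arrays alone called it too (0.0329).

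The 48 h level of Cxcl10 was lower than that of steady 600 by 2.09 ± 0.13 (limma adjusted p = 9.7e-14). The steady 600 arrays read 8.38, 8.03 and 7.86. Steady 900 read 9.37, 9.27 and 9.27 and was higher than steady 600 by 1.21 ± 0.13 (adjusted p = 8.25e-09). After the step to 900 Cxcl10 was not called at 12 h (0.18 ± 0.13, adjusted p = 0.292, but 0.33 with adjusted p = 0.0381 after median centring) and was higher at 24 h (1.09 ± 0.13, adjusted p = 7.85e-08). The returned cells read 9.48, 9.42 and 9.67, 14.6-fold above steady 300 (3.87 ± 0.13, adjusted p = 3.24e-20), and differed from steady 900 by 0.22 ± 0.13 (adjusted p = 0.189). Cxcl10 and Ccl20 were the 2 genes whose level was higher in the returned cells than in steady 300.

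The mean of the interferon-responsive genes, like Cxcl10, stood high in the concentrated steady states, but it had no peak at 3 h. Over 11 genes it was 6.86 in steady 300, 6.54 at 3 h, 6.27 at 12 h, 6.68 at 24 h, and at 48 h it lay between 6.93 and 7.03 on the 3 arrays. It was 8.41 in steady 600, 7.15 and 8.84 at 12 and 24 h after the step to 900, 9.27 in the returned cells and 9.04 in steady 900. At 3 h, 1 of the 11, Mx1, an antiviral GTPase, was higher than in steady 300 (5.89 against 5.30, limma adjusted p = 0.0477) and 5 were lower, where 12.1% and 29.5% of all genes were called. Irf7 and Isg15 read 6.03 and 7.79 at 3 h, against 5.72 and 7.56 in steady 300, and did not pass (adjusted p = 0.0651 and 0.0863). Among the lower genes was Irf1, a transcription factor induced by interferon gamma, at -1.59 ± 0.10 (limma adjusted p = 1.16e-12). In the returned cells 10 of the 11 were higher and 1 lower than in steady 300 (20.4% and 22.2% of all genes), among them Mx1 (higher by 4.91 ± 0.24, adjusted p = 1.74e-16), and Irf7, which drives interferon alpha genes (by 4.32 ± 0.13, adjusted p = 9.78e-21). Ifnb1 and Ifng, genes for interferons, were dim everywhere, with group means of 3.67 to 3.86 and 3.12 to 3.28.

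Cxcl16 is made as a membrane-bound protein and its shed form binds Cxcr6. It lay between 11.36 and 12.16 on all 30 arrays. The 3 h arrays read 11.53, 11.53 and 11.87, against 12.16 on each array of steady 300 (-0.52 ± 0.09, limma adjusted p = 3.52e-05). The 12 h difference was -0.24 ± 0.09 (adjusted p = 0.0391), which did not pass after median centring (0.534) or when any 1 of the 6 arrays was left out (0.0733 to 0.0857). At 24 and 48 h it was -0.15 ± 0.09 and -0.06 ± 0.09 (adjusted p = 0.277 and 0.732). Cxcl16 was higher at 48 h than in steady 600 by 0.40 ± 0.09 (adjusted p = 0.00124) and lower in the returned cells than in steady 300 by 0.35 ± 0.09 (adjusted p = 0.00207).

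Counted over the 10 genes, in steady 600 all arrays of 1 lay above and all arrays of 8 below those of steady 300, where 23.3% and 23.2% of all genes did so. In steady 900 these were 2 above and 8 below, with 26.8% and 29.3% of all genes. The list was chosen with these comparisons in view, so nothing is read from the counts. The median log2 difference of the 10 genes was -2.73 for steady 600 and -2.59 for steady 900, against 0.01 and -0.00 over all genes.

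In the tested comparisons a call is a limma adjusted p under 0.05. Steady groups in view when the list was chosen enter each comparison but that between 48 h and 3 h. Nothing is therefore read from those counts. Steady 900 had 3 genes higher and 2 lower than steady 600, with 11.3% and 12.9% of all genes called. Relative to steady 300, 2 were higher and 5 lower at 3 h (12.1% and 29.5% of all genes), 5 and 5 at 12 h (11.9% and 22.6%), 5 and 2 at 24 h (9.4% and 13%) and 4 and 2 at 48 h (9.57% and 12%). Under quantile normalization the 3 h counts were 4 higher and 5 lower, with 18.2% and 18.5% of all genes. Median centring also gave 4 and 5, with 31.2% and 18% of all genes. Cyclic loess gave 4 and 3, with 16.9% and 18.4%. Of all genes called at 3 h, 70.9% were lower, against 50.4% after quantile normalization, 36.6% after median centring and 52.1% with cyclic loess. Over these 3 scalings the share of calls that were lower was 29.9% to 57.5% at 12 h, 36.7% to 59.8% at 24 h and 41.2% to 59.8% at 48 h, and 65.5%, 57.96% and 55.6% as deposited. Between 48 h and 3 h, 5 were higher and 3 lower, with 29.7% and 15.9% of all genes, and the lower share of calls was 34.9% as deposited and 46.4% to 55.0% over the 3 scalings.

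The 48 h cells had 9 of the 10 genes higher and 1, Cxcl10, lower than steady 600, where 9.47% of all genes were higher and 12.5% lower. The median over the 10 was 1.40 against 0.00 over all genes. The steady 600 arrays of the list's choice enter here, so nothing is read from this count or median. After the step to 900, 6 were higher and 1 lower than in steady 600 at 12 h (12.5% and 25.3% of all genes), and 7 and 1 at 24 h (11.2% and 14.7%). The lower share of all calls was 56.9% for 48 h against steady 600, 67.0% at 12 h and 56.7% at 24 h after the step to 900. Over the other scalings it was 43.6% to 57.0%, 37.8% to 53.3% and 40.7% to 52.1% in the same order. The 1 lower gene at 24 h, Cxcl6, was not called under quantile normalization or median centring. At 24 h the cells at 900 had 6 genes higher and 0 lower than steady 900, with 9.47% and 8.83% of all genes. At an unadjusted p under 0.05 0 of the 10 were lower there. The returned cells had 4 higher and 1 lower than steady 900 (19.3% and 18.5%), and 2 higher and 8 lower than steady 300 (20.4% and 22.2%).

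The step from 600 to 900 and the step from 300 to 600 were compared as the difference of their log2 changes. The steady 600 and steady 300 arrays enter this difference, and the list was chosen with those groups in view, so the values are descriptions without p-values and nothing is read from the counts. By the adjusted p of the limma fit, 6 genes were counted as more upward and 2 as more downward in the step to 900 at 12 h, where 6.18% and 7.25% of all genes were. Of all genes so counted 54.0% were downward, and 43.7% to 57.3% over the other scalings. Ccl7 differed by 1.76 ± 0.16, being higher by 0.28 in the step to 900 and lower by 1.48 in the step to 600. Ccl20 was higher after both steps, and its difference was 1.54 ± 0.22. Cxcl10 had a change of 0.18 after the step to 900, which was not called, and of 1.40 after the step to 600, a difference of -1.22 ± 0.18. For Cxcl1 the difference was 0.02 ± 0.14.

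At 24 h, 6 genes were counted upward and 0 downward, with 7.48% and 5.46% of all genes, and 0 were downward at an unadjusted p under 0.05 in limma. Ccl6 differed by 3.66 ± 0.20, having stood at 3.75 in steady 600 before the step to 900 and at 8.89 in steady 300 before the step to 600. Ccl3 differed by 2.89 ± 0.21, with a change of 1.38 after the step to 900 and of -1.51 after the step to 600. Ccl2, at 0.26 ± 0.08, was not counted under 3 other scalings or without any one of 10 of the 12 arrays, all but replicate 2 of steady 600 and replicate 9 of the 24 h group at 900. Cxcl2, at 0.85 ± 0.25, was not counted without replicate 3 of steady 600 or replicate 9 of that 24 h group.

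Of 27 other chemokine genes, 25 were measured, with a list mean between 5.01 and 5.46 in the groups. In the 48 h cells 5 of the 25 were higher and 2 lower than in steady 600 (9.47% and 12.5% of all genes). Besides Cxcl3, Ccl24, an eosinophil attractant, was higher by 1.17 ± 0.12 (limma adjusted p = 8.94e-09) and Cxcl17, a mucosal chemokine, by 0.90 ± 0.15 (adjusted p = 1.81e-05). In the returned cells 2 were higher and 11 lower than in steady 300 (20.4% and 22.2% of all genes), with Ccl9 at -1.58 ± 0.16 (adjusted p = 2.12e-09) and Pf4, a platelet and macrophage product, at -1.31 ± 0.12 (adjusted p = 1.74e-10). Cxcl11, a further ligand of Cxcr3, was lower at 3 h than in steady 300 (-1.02 ± 0.17, adjusted p = 1.5e-05), when Cxcl10 was higher. Cxcl12 was 5.12 at 48 h, against 5.01 in steady 600.

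Of 23 receptor genes, 19 were measured. Cxcr2, the receptor of Cxcl1, Cxcl2 and Cxcl6, was at 6.82 in steady 300, 6.40 at 3 h, 5.55 at 12 h, 4.56 at 24 h and 6.19 at 48 h, and was lower at 24 h by 2.26 ± 0.14 (limma adjusted p = 3.33e-13). Ackr3, a decoy receptor for Cxcl12, was lower at 48 h than in steady 600 (-2.02 ± 0.08, adjusted p = 2.19e-17). In that comparison 1 of the 19 receptors was higher and 1 lower, with 9.47% and 12.5% of all genes. Ccr6 and Cxcr3, the receptors of Ccl20 and Cxcl10, had group means of 4.98 to 5.23 and 5.12 to 5.52.

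All genes of a list of 13 cytokines, drawn up as possible inducers of chemokines, were measured. Of these, 6 were higher and 1 lower in the 48 h cells than in steady 600, with 9.47% and 12.5% of all genes called there. Whether they induced the chemokines in these cultures was not tested. Il1a, an epithelial alarm cytokine, was higher by 3.09 ± 0.19 (limma adjusted p = 2.08e-13), Il1b by 2.29 ± 0.15 (adjusted p = 4.35e-13) and Tnf by 2.13 ± 0.16 (adjusted p = 1.23e-11). Relative to steady 300, 1 was higher and 7 lower at 48 h (9.57% and 12% of all genes), with Il1a at 8.74 against 10.85 and Il1b at 7.24 against 9.28. At 24 h after the step to 900, 1 was higher and 6 lower than in steady 600 (11.2% and 14.7%). In the returned cells 2 were higher and 8 lower than in steady 300 (20.4% and 22.2%), with Il1a at -5.16 ± 0.19 (adjusted p = 6.36e-19) and Il1b at -4.42 ± 0.15 (adjusted p = 5.39e-20).

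Genes of NF-kB subunits and of its feedback loop, 10 of 13 measured, were 7 higher and 0 lower in the 48 h cells than in steady 600 (9.47% and 12.5% of all genes). Nfkbiz, an inducible cofactor, was higher by 1.12 ± 0.11 (limma adjusted p = 2.14e-09), Nfkb1, the p105 subunit, by 0.95 ± 0.07 (adjusted p = 4.56e-12) and Birc3 by 0.94 ± 0.09 (adjusted p = 2.69e-09). In the returned cells 9 were lower than in steady 300 and 0 higher (22.2% and 20.4% of all genes), with Nfkbia, the inhibitor that NF-kB itself induces, at -0.84 ± 0.08 (adjusted p = 2.05e-10). No gene of this list was lower at 48 h than in steady 600 or higher in the returned cells than in steady 300, at an adjusted p under 0.05 in limma, and 0 and 0 were so at an unadjusted p under 0.05.

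The likeness of patterns was measured as Pearson's r over the 10 group means, among 3944 other genes whose means spanned at least 1 log2 unit. The values of r are given as a description. Cxcl1 was most like Nfkb1 (r = 0.985), Clec2d (0.983) and Cxcl3 (0.978), and Cxcl2 most like Clec2d (0.982), Dlgap5l2 (0.978) and Nfkb1 (0.973). Cxcl6 was most like Iapp (0.989), Irf5 (0.985) and Aldh2 (0.984). Ccl6 followed Slamf9, RT1-Ba and Enpp3 (0.984 to 0.986) and Ccl3 followed Slc1a3 (0.982), Il1b (0.959) and Adgre1, a macrophage surface receptor (0.947). Ccl20 was most like Krt23 (0.966), Slc12a2 (0.959) and Gucy2g (0.952), and Cxcl10 most like Fam117a (0.947), Acp5 (0.945) and Fanca (0.935). For Ccl7 the closest were 2810025M15Rikl (0.921), Sgms1 (0.900) and Krt80 (0.899). Ccl2 and Cxcl16 varied too little for this measure.

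Among the members, Cxcl1 and Cxcl2 had r = 0.985, Cxcl1 and Cxcl6 0.967, Cxcl2 and Cxcl6 0.925, and Ccl3 and Ccl6 0.899. Cxcl10 ran opposite to Cxcl6 (-0.853) and Cxcl1 (-0.820). By rank the likeness of the neutrophil chemokines was lower, with Spearman's rho of 0.697 for Cxcl1 and Cxcl6 and 0.564 for Cxcl2 and Cxcl6.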

How the data were processed

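Total RNA of the cultures was hybridised to Affymetrix Rat Gene arrays. The values deposited by the authors are log2 intensities summarised by RMA, per the submitters' processing notes and the range of the values (1.72 to 13.9), and were used as they stand. The deposited table has 29170 probe sets, of which 15310 carry 1 gene symbol, 323 several and 13537 none, and for each of 14506 genes the brightest probe set with 1 symbol was kept.

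One mean per group was fitted over all 30 arrays with limma 3.58.1 (R 4.3.3) and empirical Bayes variances, and p-values were adjusted by Benjamini and Hochberg over all genes, with a threshold of 0.05. The steps were tested on simulated data. The members, the gene lists and the comparisons were chosen with earlier results of these data known. Genes of a list were named if they had the 3 largest called changes in a comparison described, besides a few named in advance such as Il1a, Il1b, Cxcl12 and Ptprc. What the replicate numbers mean is not stated, and the main fit used no pairing. Deviations of same-numbered arrays correlated with a median r of 0.0118 over 114 pairs, from -0.126 to 0.238. For other-numbered arrays the median was -0.00837 over 291 pairs, from -0.281 to 0.226. Medians over all groups cannot exclude pairing between some of them. Alternatives were other scalings, a filter on dim genes, array weights, a replicate block and leaving out arrays. The number of arrays limits precision.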

Additional observations from a re-analysis of the deposited data

Results flagged for a closer look

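The log2 changes after the 2 upward steps were compared by the adjusted p of the limma fit. That counted 8 of the genes at 12 h and 6 at 24 h as different. Of all genes, 6.18% were counted upward and 7.25% downward at 12 h, and 7.48% and 5.46% at 24 h. Differences are the change after the step to 900 minus the change after the step to 600. The steady groups in view when the list was chosen enter these differences. They stand as descriptions without p-values, and nothing is read from the counts. At 12 h the difference was 1.76 ± 0.16 for Ccl7, 1.54 ± 0.22 for Ccl20, 1.47 ± 0.21 for Ccl3 and 1.07 ± 0.25 for Cxcl2. It was 0.77 ± 0.20 for Ccl6, 0.46 ± 0.08 for Ccl2, -1.35 ± 0.26 for Cxcl6 and -1.22 ± 0.18 for Cxcl10.

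At 24 h it was 3.66 ± 0.20 for Ccl6, 2.89 ± 0.21 for Ccl3, 0.87 ± 0.22 for Ccl20, 0.85 ± 0.25 for Cxcl2, 0.65 ± 0.16 for Ccl7 and 0.26 ± 0.08 for Ccl2. Ccl6 was already at 3.75 in steady 600 before the step to 900.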

How the results depend on the processing

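In each comparison the total of called genes among the 10, both directions together, stayed within 1.5 times under the alternatives run. With all arrays kept, the counts by direction at 3 h and at 24 h after the step to 900 moved beyond that limit, as given beside them. Array weights gave 4 lower at 24 h after the step to 600, against 2 (18.2% of all genes with these weights). They gave 2 lower at 12 h after the step to 900, against 1 (30.4% of all genes). Other counts by direction also moved, but within that limit. Of 140 tested results of single genes, 110 stayed on the same side of the threshold under all the alternatives, and none reversed. Whether replicate numbers pair the arrays is not settled, and with the replicate block 138 of these 140 kept their call. The difference of Ccl7 at 12 h after the step to 900 from steady 600, 0.28, was lost (adjusted p = 0.0661) and that of Cxcl10 at 48 h from steady 300, 0.34, passed (0.0473). Calls that other scalings or single arrays changed stand beside their results, apart from these. The 24 h level of Cxcl6 at 900 against steady 900 (0.59 ± 0.18, limma adjusted p = 0.0211) was lost without replicate 2 or 3 of steady 900 (0.0695 and 0.105) or replicate 2 of the 24 h group (0.196). That of Ccl7 (0.38 ± 0.11, adjusted p = 0.0148) was lost without replicate 1 or 3 of steady 900 (0.0572 and 0.0602) or replicate 2 or 9 of the 24 h group (0.0618 and 0.0573). The rise of Cxcl6 between 3 and 48 h (0.60 ± 0.18) was lost with cyclic loess (adjusted p = 0.162). That of Cxcl1 passed without replicate 3 of the 3 h group (0.0267), and Cxcl16 was lower at 12 h after the step to 900 than in steady 600 without replicate 9 of the 12 h group (-0.32, adjusted p = 0.00121). With cyclic loess the differences between steps of Cxcl16 at 12 h and Cxcl1 at 24 h were also counted. That of Cxcl1 was also counted without replicate 2 of the 24 h group at 900. A fit of the compared arrays alone lost 3 calls, Ccl7 at 12 h after the step to 900 against steady 600 (0.143) and Cxcl6 at 24 h after it against steady 600 (0.135) and steady 900 (0.0547), and array weights added 10 calls and lost 0. Median centring moved the median of all genes by up to 0.172, at 12 h after the step to 600, and changes are relative to that. The cause was not tested.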
